A study of Mus musculus with 24 samples.

Results

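Transcripts of the interleukin 1 (IL-1) family and of the inflammasome were followed during osteoclast formation. The group holds 10 genes, which are Il1a, Il1b, Il1rn, Il1r1, Il1r2, Il1rap, Il18, Nlrp3, Casp1 and Pycard, and its members are all probes whose single gene symbol in the platform annotation is one of these. They have 23 of the 45281 probes on the Illumina mouse bead array, and 8 of the 10 genes were among the 9917 genes that could be tested. Bone marrow-derived macrophages (BMMs) came from male C57BL/6 mice aged 5 weeks. Marrow cells that floated after 24 h in culture were grown for 72 h in M-CSF at 30 ng/mL, and the attached cells were then given RANKL at 100 ng/mL with M-CSF at 30 ng/mL for 24, 48 or 72 h. The 0 h samples, which the labels call control, had no RANKL, and each of the 4 times has 6 arrays. Without a group that stayed in M-CSF alone through 24, 48 and 72 h, effects of RANKL and of time in culture cannot be told apart. Whether the 6 samples of a time come from different cultures or mice is not given, so the p-values rest on the variation among these 6, and that variation may be technical.

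IL-1α and IL-1β are inflammatory cytokines that signal through the receptor IL1R1 together with its accessory protein IL1RAP. The antagonist IL1RN occupies IL1R1 without starting a signal, and the decoy receptor IL1R2 binds IL-1 without passing it on. IL-1β and IL-18 are made as inactive precursors that caspase-1 cleaves once a sensor such as NLRP3 and the adaptor PYCARD (ASC) have assembled an inflammasome, whereas IL-1α is active without that cleavage. IL-1 is known to promote the formation and activity of osteoclasts. The arrays measured transcripts only, so they do not show cleavage or release of any of these proteins.

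Median signals of the 24 arrays ranged from 89.5 to 122, with 15781 to 17109 probes detected per array, and Pearson's r between arrays of 1 time was 0.994 to 0.998. The labels were checked on osteoclast genes: Ctsk, which encodes cathepsin K, rose 2.67-fold by 24 h and was 8.98-fold and 7.80-fold above 0 h at the later times, and Acp5 and Mmp9 rose at all 3 times too. The macrophage receptor gene Csf1r was detected on all 6 arrays of each time. Of 16 listed neutrophil markers 13 were tested, and 13, 12 and 12 of them were lower after 24, 48 and 72 h of RANKL than before it. Their summed signal per array was 60000 to 65300 before RANKL, and it fell to 26200 to 27700 after 24 h, 24500 to 26000 after 48 h and 12200 to 13700 after 72 h. Among these markers Cxcr2 was detected on no array from 24 h on and Retnlg on none at 72 h, while Csf3r was 3.26-fold higher at 72 h. All 5 tested erythroid and megakaryocyte markers, of 9 listed, were lower at each later time as well, and their summed signal went from 8640 to 10500 before RANKL to 2280 to 2770 after 72 h. In bulk RNA, fewer cells of a type and less RNA per cell cannot be told apart.

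The promoters of Il1a, Il1b and Il1rn are shown because these genes had the largest changes among the members. Il1a and Il1b are neighbours on chromosome 2 with 0 protein-coding genes listed between them, yet they moved in opposite directions at 48 h and 72 h, and Il1rn encodes the antagonist of both. Each sequence is from RefSeq (build GRCm38.p6) and runs 5′ to 3′ from 250 bases before the transcript start through 50 bases after it. Il1a lies at chr2:129309923-129310222 and Il1b at chr2:129371090-129371389, both on the minus strand. Il1rn is the first of 3 windows listed for that gene, chr2:24336610-24336909 on the plus strand. Capitals mark matches to a TATA box (TATAAA), an AP-1 motif (TGANTCA) or a PU.1 core (GAGGAA).
Il1a: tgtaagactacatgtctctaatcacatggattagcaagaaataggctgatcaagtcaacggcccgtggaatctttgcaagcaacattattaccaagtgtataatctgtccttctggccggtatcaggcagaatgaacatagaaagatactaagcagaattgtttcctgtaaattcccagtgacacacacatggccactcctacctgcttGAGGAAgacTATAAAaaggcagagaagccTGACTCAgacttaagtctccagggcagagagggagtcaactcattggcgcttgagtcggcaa
Il1b: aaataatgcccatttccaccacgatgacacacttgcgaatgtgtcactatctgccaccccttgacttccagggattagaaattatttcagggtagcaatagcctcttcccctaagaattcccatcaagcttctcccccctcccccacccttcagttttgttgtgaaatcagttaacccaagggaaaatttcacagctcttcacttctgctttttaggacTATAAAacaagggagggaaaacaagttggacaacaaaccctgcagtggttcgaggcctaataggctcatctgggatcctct
Il1rn: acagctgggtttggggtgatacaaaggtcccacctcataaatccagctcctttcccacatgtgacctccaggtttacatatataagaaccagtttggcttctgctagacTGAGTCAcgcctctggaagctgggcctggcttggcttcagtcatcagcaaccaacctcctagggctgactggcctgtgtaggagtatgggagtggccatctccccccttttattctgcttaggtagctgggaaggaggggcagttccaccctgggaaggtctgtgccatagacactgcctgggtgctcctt

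The Il1a promoter held TATAAA 32 bases, TGACTCA 12 bases and GAGGAA 41 bases before the start. The Il1b window held TATAAA 31 bases before the start, and the Il1rn window held TGAGTCA 141 bases before it. Both strands were searched, and the AP-1 motif reads the same on both. TATAAA occurred in 13.6% of all 32851 promoter windows, TGANTCA in 7.81% and GAGGAA in 28.3%. Among the 14 windows of the 10 genes, 4 held TATAAA, 2 held TGANTCA and 4 held GAGGAA. A C/EBP motif (TTGCNNAA) was in 2 of the 14 and in 10.8% of all windows, and an NF-kB motif was in 2 of the 14 and in 4.51% of all, neither of them in the windows printed here. These are matches of letters, and binding was not measured.

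Of the 8 tested genes, 3 were higher and 4 lower at 24 h than at 0 h (limma, adjusted p under 0.05). The same test called 29.2% of all genes higher and 37.8% lower, so passing was common on these arrays and sizes are given beside each call. The 48 h arrays put 3 genes above 0 h and 3 below, where 33.1% of all genes were higher and 39.2% lower. The 72 h arrays gave the same counts, 3 and 3, against 34.2% and 39.4% of all genes. Between 24 h and 48 h the test called 4 of the 8 higher and 1 lower (39.2% and 34.6% of all genes), and between 48 h and 72 h it called 1 higher and 3 lower (17.4% and 19.4%). Over all genes, the share of calls that were higher fell from 43.6% to 32.2% with 75th percentile scaling at 24 h, and from 47.4% to 34.2% with the authors' processed values and to 28.0% with median scaling between 48 h and 72 h.

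Fewer of these changes were large. With at least 1.5-fold required as well, 2 genes were higher and 2 lower at 24 h, against 8.29% and 9.71% of all genes. For 48 h the counts were 2 and 1 (10.8% and 12.2% of all genes) and for 72 h they were 1 and 2 (11.7% and 13.7%). From 24 h to 48 h they were 1 and 1 (14.8% and 14.1%), and from 48 h to 72 h they were 1 and 0 (1.10% and 2.63%). The arrays of the 2 times compared did not overlap for 7, 5 and 4 of the 8 genes at 24, 48 and 72 h against 0 h, beside 46.8%, 53.3% and 54.3% of all genes. They did not overlap for 4 genes between 24 h and 48 h (57.1% of all genes) and for 3 between 48 h and 72 h (19.5%). The median size of change from 0 h was 0.52, 0.44 and 0.36 on the log2 scale, beside 0.23, 0.28 and 0.30 over all genes. Log2 signals are quantile normalized and not background subtracted, which compresses changes of dim probes.

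**Figure D1:**
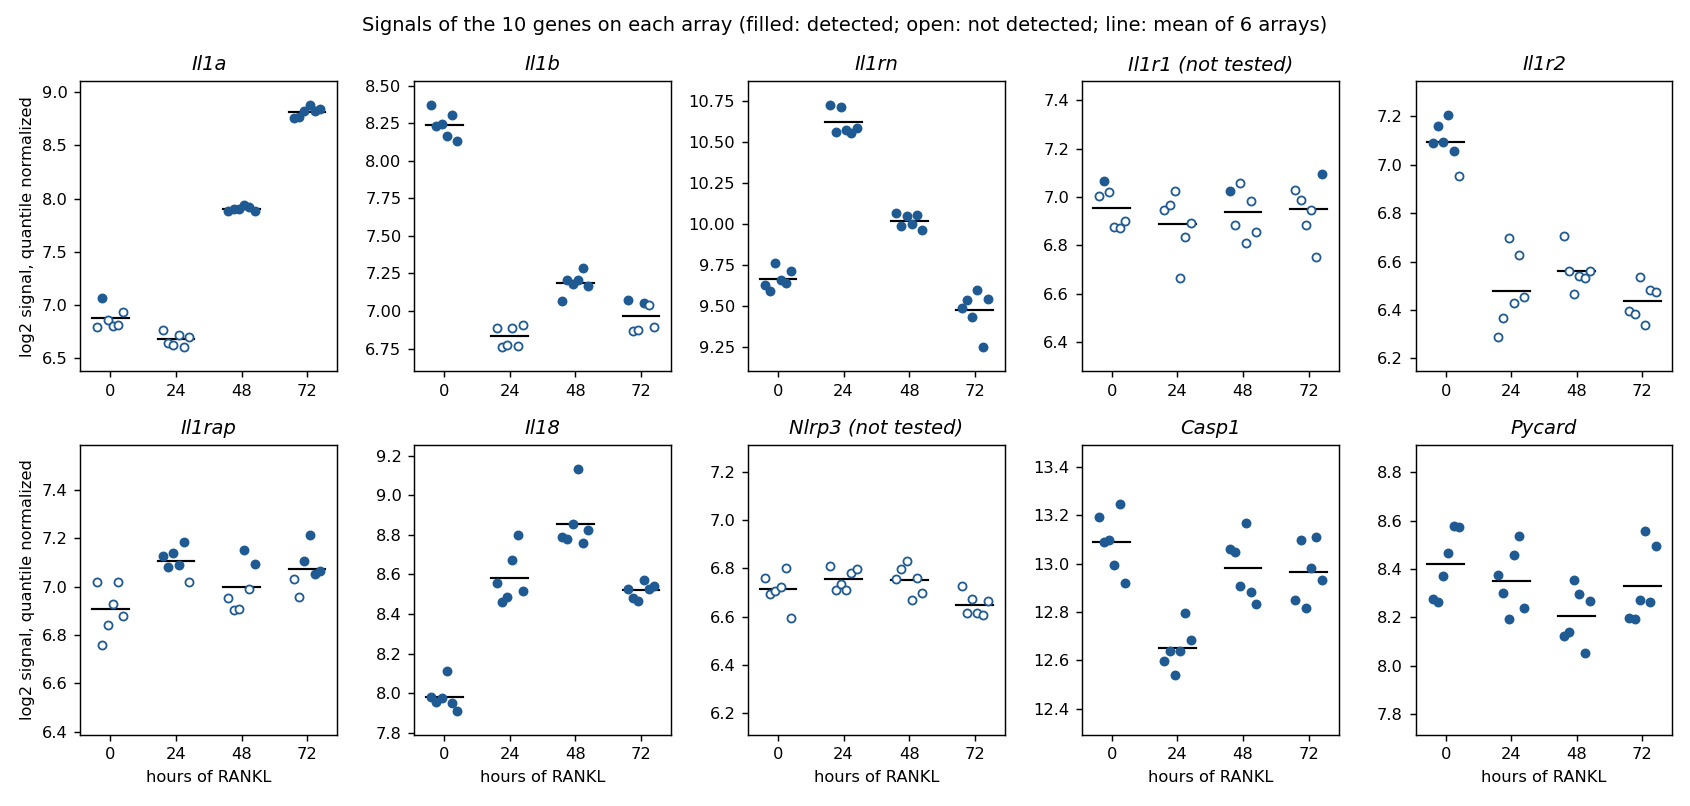
Log2 signal (vertical axis, quantile normalized) of each of the 10 genes on each array against hours of RANKL, with filled points for arrays on which the probe was detected, open points for the others and a line at the mean of 6 arrays. Il1a rose to 8.75 to 8.88 at 72 h, Il1b fell from 8.13 to 8.37 at 0 h, and Nlrp3 was detected on no array.

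Il1a, the gene of IL-1α, rose late from signals near background. Its log2 signal was 6.79 to 7.06 at 0 h (median 6.84, detected on 1 of 6 arrays) and 6.61 to 6.76 at 24 h (median 6.67, detected on 0). It was 7.88 to 7.94 at 48 h (median 7.90) and 8.75 to 8.88 at 72 h (median 8.82), with all 6 arrays detected at both times. All arrays at 48 h lay above those at 0 and 24 h, and all at 72 h lay above those at 48 h. Against 0 h, Il1a was 2.04-fold higher at 48 h (log2 change 1.03 ± 0.05 SE, n = 6 per time, limma adjusted p = 3.01e-20). At 72 h it was 3.82-fold higher (log2 change 1.93 ± 0.05, limma adjusted p = 7.86e-29). Both folds are against a 0 h signal that only 1 of 6 arrays detected. From 24 h to 48 h it rose at least 1.85-fold, and from 48 h to 72 h it rose 1.88-fold (limma adjusted p = 1.03e-17). Its log2 change of -0.20 at 24 h passed the test (limma adjusted p = 0.000446), but with no array detected at 24 h no fold is given. A second Il1a probe, ILMN_1243066, gave log2 changes of 0.67 at 48 h and 1.44 at 72 h. It was detected on 0 arrays at 0 and 24 h and on all 6 at 48 and 72 h. Both probes were kept only through their 48 h and 72 h arrays, so their being higher there is partly set by that filter. The lack of overlap with 0 and 24 h and the second probe are therefore not separate support. The rise from 48 h to 72 h lies between times at which all 6 arrays detected both probes. The summed signal of the stromal and fibroblast markers, of which 3 of 8 listed were tested, was 413 to 485, 354 to 431, 654 to 729 and 963 to 1110 per array at 0, 24, 48 and 72 h. Of these 3, Col1a1 (1.97-fold and 2.11-fold) and Dcn (1.85-fold and 4.23-fold) were higher at 48 h and 72 h and Cxcl12 did not pass at either, while Col3a1, Lum and Pdgfrb of the same list were detected on no array. The part of such cells in the rise of Il1a was not tested.

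Il1b, the gene of IL-1β, fell within the first day and stayed low. At 0 h its log2 signal was 8.13 to 8.37 (median 8.24) and it was detected on all 6 arrays. At 24 h it was 6.76 to 6.91 (median 6.83) with 0 arrays detected, at 48 h 7.06 to 7.29 (median 7.19) with 6 detected, and at 72 h 6.87 to 7.07 (median 6.97) with 2 detected. Every array at the 3 later times lay below every array at 0 h. The fall was at least 2.33-fold at 24 h (log2 change -1.41 ± 0.05 SE, n = 6 per time, limma adjusted p = 6.75e-23). It was 2.08-fold at 48 h (log2 change -1.06, limma adjusted p = 1.95e-19) and 2.42-fold at 72 h (log2 change -1.27, limma adjusted p = 5.5e-22). Between 24 h and 48 h Il1b rose by at least 1.12-fold, with all 48 h arrays above those at 24 h, and from 48 h to 72 h it fell 1.16-fold (log2 change -0.22, limma adjusted p = 0.00124) with overlapping arrays. The neutrophil markers fell over the same times as given above, and their part in the fall of Il1b was not tested.

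**Figure D2:**
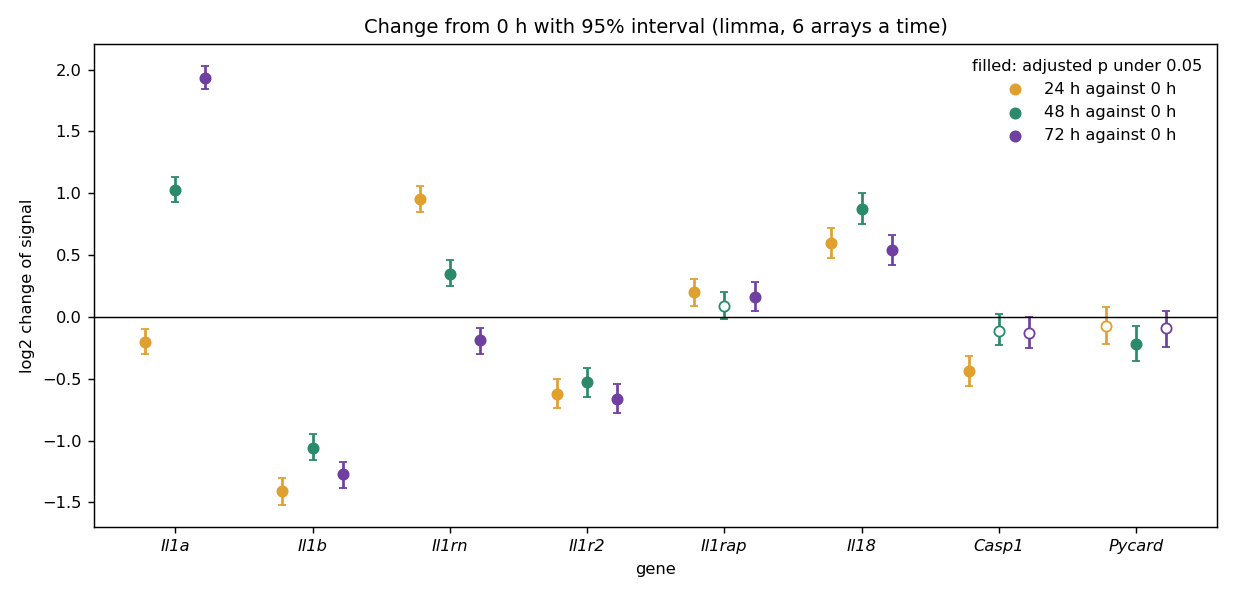
Log2 change from 0 h (vertical axis) of the 8 tested genes at 24, 48 and 72 h, with 95% intervals from limma and 6 arrays per time; filled points passed at an adjusted p under 0.05. Il1a moved from -0.20 at 24 h to 1.93 at 72 h, while Il1b stayed between -1.41 and -1.06.

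Il1rn, the gene of the receptor antagonist, peaked at 24 h. The log2 signal of its brightest probe, ILMN_3072427, was 9.59 to 9.76 at 0 h (median 9.65) and 10.55 to 10.73 at 24 h (median 10.58). It then stood at 9.97 to 10.07 at 48 h (median 10.03) and at 9.25 to 9.60 at 72 h (median 9.51). The arrays at 24 h were the highest of the 4 times and overlapped none of the others. Il1rn was 1.94-fold higher at 24 h than at 0 h (log2 change 0.95 ± 0.05 SE, n = 6 per time, limma adjusted p = 4.28e-18) and 1.28-fold higher at 48 h (0.35, limma adjusted p = 1.96e-07). It fell 1.52-fold from 24 h to 48 h and 1.46-fold from 48 h to 72 h. At 72 h its direction against 0 h depended on the probe. The brightest probe was 1.14-fold lower (log2 change -0.19, limma adjusted p = 0.00134), whereas ILMN_2682566, which was designed on another RefSeq transcript of the gene, was higher (log2 change 0.92, limma adjusted p = 1.36e-15 over all kept probes).

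That second probe also moved more at 24 h and 48 h, with log2 changes of 1.93 and 1.26. Its signal minus that of the brightest probe on the same array was -0.98 to -0.71 at 0 h. It stood at -0.02 to 0.28 after 24 h, -0.02 to 0.21 after 48 h and 0.11 to 0.34 after 72 h. The 2 probes thus changed unequally, mainly between 0 h and 24 h. One more kept probe, ILMN_3151270, was detected on all 6 arrays at 24 h and on none at the other times, with a log2 change of 0.30 at 24 h. It was kept only through its 24 h arrays, so its highest mean at 24 h is partly set by that filter and adds no support. The peak at 24 h rests on the 2 bright probes, which were detected on every array and both had their highest mean there. The remaining probe was detected on no array.

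**Figure D3:**
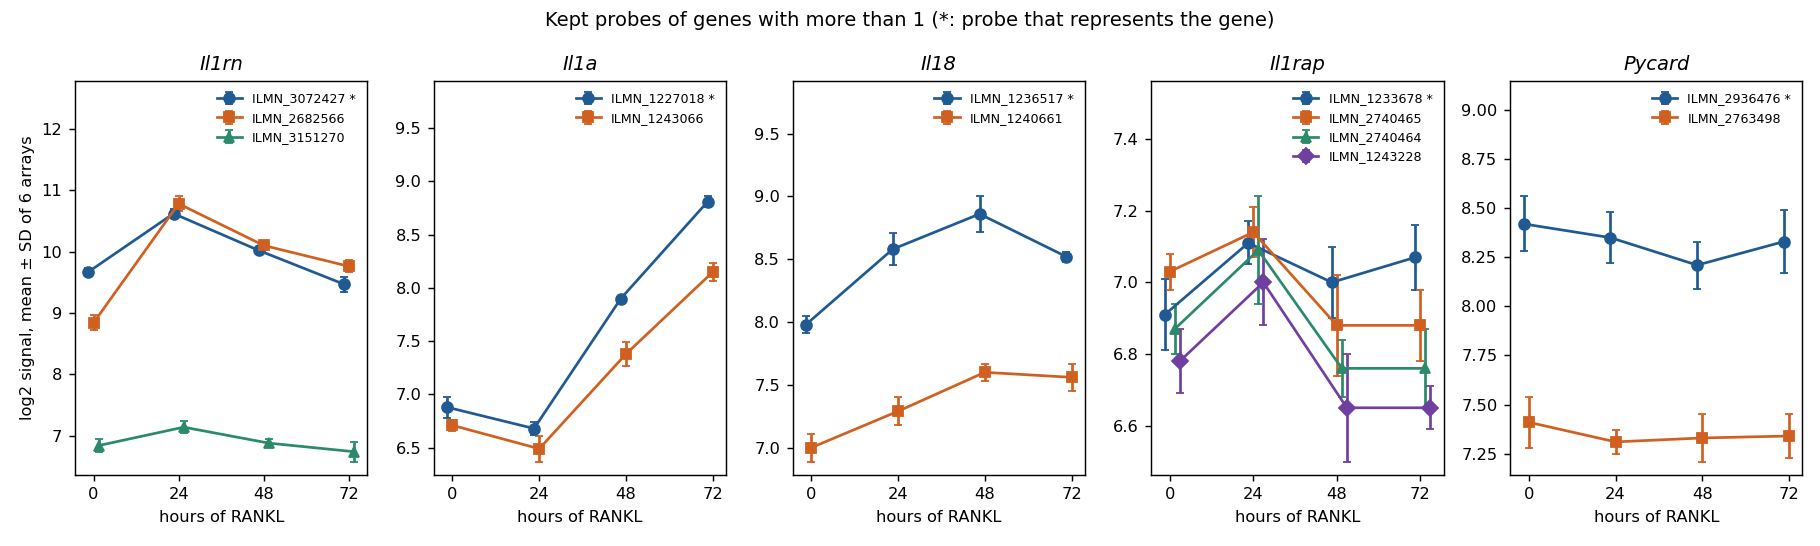
Mean log2 signal ± SD of 6 arrays (vertical axis) against hours of RANKL for each kept probe of the 5 genes with more than 1, the star marking the probe that represents the gene. The 2 bright Il1rn probes part at 0 h and 72 h, and 3 of the 4 Il1rap probes lie lower at 48 and 72 h than at 0 h.

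Differences between these 3 genes within each array are given as a description. Such a difference between probes has no meaning as a level. It also rests on background readings in part, since Il1a was detected on 1 of 6 arrays at 0 h and 0 at 24 h, and Il1b on 0 at 24 h and 2 at 72 h. Il1a minus Il1b had medians of -1.37, -0.16, 0.72 and 1.86 at 0, 24, 48 and 72 h, and the arrays of the 4 times did not overlap. The 24 h value is a difference of 2 signals that no array detected. Il1rn minus Il1b rose from a median of 1.43 at 0 h to 3.79 at 24 h and then stood at 2.80 and 2.55. Il1a minus Il1rn had its lowest median, -3.93, at 24 h and its highest, -0.71, at 72 h, with -2.83 at 0 h and -2.11 at 48 h. With the other bright Il1rn probe the size of these shifts would differ, since the probes changed unequally.

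**Figure D4:**
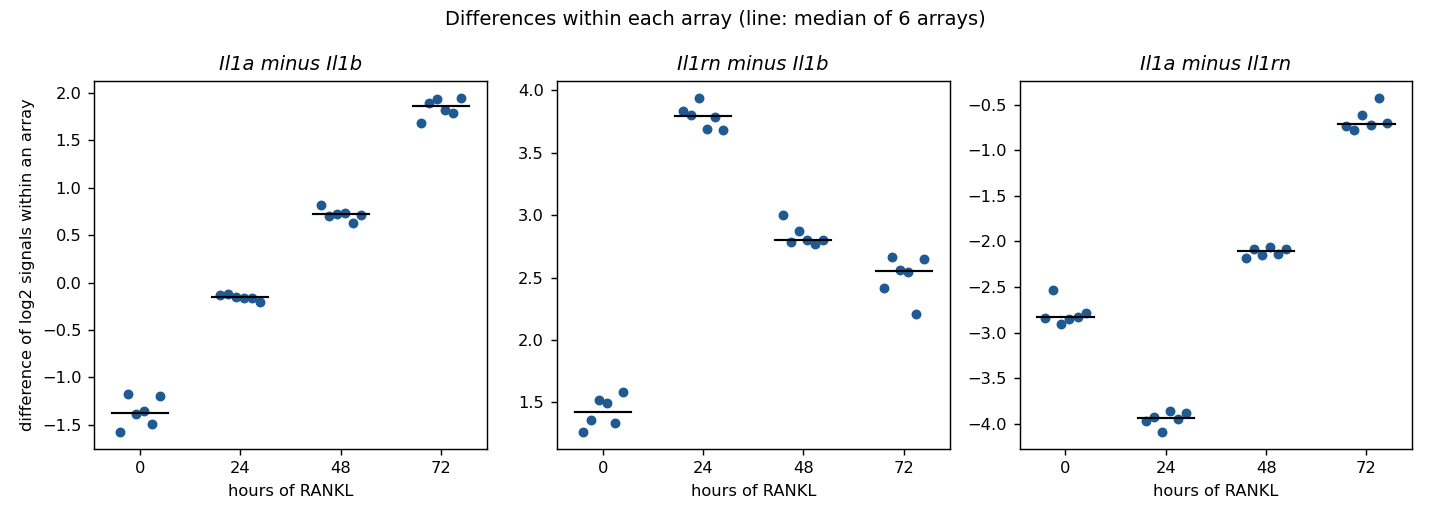
Difference of 2 log2 signals on the same array (vertical axis) for Il1a minus Il1b, Il1rn minus Il1b and Il1a minus Il1rn against hours of RANKL, 1 point per array with a line at the median of 6. Il1a minus Il1b climbs from a median of -1.37 to 1.86, and at 24 h neither gene was detected.

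Among the receptors, Il1r2, the gene of the decoy receptor, was lost from detection. Its log2 signal was 6.95 to 7.20 at 0 h (median 7.09), where 5 of 6 arrays detected it. It was 6.29 to 6.70 at 24 h, 6.46 to 6.71 at 48 h and 6.34 to 6.54 at 72 h, with 0 arrays detected at these times and all of them below the arrays at 0 h. The probe was kept only through its 0 h arrays, so its being highest there is partly set by that filter. The lack of overlap is therefore not separate support. Detection at 0 h was itself marginal, with detection p of 0.0224 to 0.0887. Because the later signals are at background, only bounds can be given, which are falls of at least 1.05-fold at 24 h and at least 1.04-fold at 48 h and at 72 h (limma adjusted p = 1.8e-11, 4.83e-10 and 2.34e-12). The neutrophil markers also moved with this fall, and their part in it was not tested.

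Il1r1, the gene of the signalling receptor, could not be tested. Its brighter probe had log2 signals of 6.67 to 7.09 over all arrays and was detected on 1, 0, 1 and 1 of 6 arrays at 0, 24, 48 and 72 h. The other probe was detected on none. At this sensitivity the Il1r1 transcript was at background throughout, which does not show that it was absent.

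Il1rap, the gene of the accessory protein shared with other receptors of the family, was near background too. Its brightest probe had medians of 6.90, 7.11, 6.97 and 7.06 and was detected on 0, 5, 2 and 4 of 6 arrays. It was at least 1.04-fold higher at 24 h than at 0 h (limma adjusted p = 0.00152, lost with 75th percentile scaling at log2 change 0.12, adjusted p = 0.0582), did not pass at 48 h (log2 change 0.09, 95% interval -0.02 to 0.20) and was at least 1.01-fold higher at 72 h (limma adjusted p = 0.00697). The other 3 kept probes had log2 changes of 0.12 to 0.22 at 24 h but -0.15 to -0.11 at 48 h and at 72 h. Of these, ILMN_2740464 and ILMN_1243228 were kept only through their 24 h arrays, so their rise there adds no support. ILMN_2740465 did not pass at 24 h (limma adjusted p = 0.0623 over all kept probes). The probes not kept, ILMN_1226428 and ILMN_1226650, had means of 6.69 and 6.37 at 0 h and 6.70 and 6.38 at 24 h. The brightest probe was itself kept only through its 24 h and 72 h arrays, so its rise at both times is partly set by that filter. Its rise at 72 h also rests on 1 probe of 4. No direction is therefore given for Il1rap at any time.

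Il18, the gene of the other caspase-1 substrate of the family, rose and stayed up. Its log2 signal was 7.91 to 8.11 at 0 h (median 7.97), 8.46 to 8.80 at 24 h (median 8.54), 8.76 to 9.13 at 48 h (median 8.81) and 8.47 to 8.57 at 72 h (median 8.53). All arrays of the 3 later times were above those at 0 h. Il18 was 1.52-fold higher at 24 h (log2 change 0.60 ± 0.06 SE, n = 6 per time, limma adjusted p = 4.66e-11), 1.83-fold higher at 48 h (0.87, limma adjusted p = 1.74e-15) and 1.45-fold higher at 72 h (0.54, limma adjusted p = 4.88e-10). The fall from 48 h to 72 h was 1.26-fold (log2 change -0.34, limma adjusted p = 2.11e-05). The second Il18 probe, ILMN_1240661, rose by 0.29, 0.60 and 0.56 on the log2 scale at the 3 times. It moved by only -0.04 from 48 h to 72 h, which did not pass (limma adjusted p = 0.695). This probe was detected on 2 of 6 arrays at 0 h and on all 6 at each later time. It was kept only through the later times, so its rise from 0 h is partly set by that filter and adds no support.

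The inflammasome core changed little or was not detected. Casp1, the gene of caspase-1, had log2 signals of 12.92 to 13.25 at 0 h (median 13.09) and 12.54 to 12.80 at 24 h (median 12.64), and these arrays did not overlap. At 48 h it was back at 12.83 to 13.17 (median 12.98) and at 72 h at 12.82 to 13.11 (median 12.96). The dip at 24 h was 1.36-fold (log2 change -0.44 ± 0.06 SE, n = 6 per time, limma adjusted p = 7.16e-08), and the rise from 24 h to 48 h was 1.26-fold (limma adjusted p = 7.74e-06). Against 0 h, Casp1 did not pass at 48 h (log2 change -0.11, 95% interval -0.23 to 0.02) or at 72 h (-0.13, interval -0.25 to 0). These 2 calls depend on scaling: with the authors' processed values, median scaling or 75th percentile scaling Casp1 was lower at both times, by -0.31 to -0.24 at 48 h and by -0.35 to -0.29 at 72 h. Without replicate 4 Casp1 was lower at 48 h (log2 change -0.16, limma adjusted p = 0.0218) and at 72 h (-0.15, limma adjusted p = 0.0347), and without replicate 6 it was lower at 72 h (-0.15, limma adjusted p = 0.0381).

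Pycard, which encodes the adaptor that links sensors to caspase-1, was detected on all 24 arrays. Its medians were 8.42, 8.34, 8.20 and 8.27 and the arrays of all 4 times overlapped. It was 1.16-fold lower at 48 h (log2 change -0.22 ± 0.07 SE, n = 6 per time, limma adjusted p = 0.00769). Without replicate 5 that call was lost (log2 change -0.15, limma adjusted p = 0.0692), and the second probe did not pass either (-0.08, limma adjusted p = 0.243). The log2 changes at 24 h (-0.07, 95% interval -0.22 to 0.08) and at 72 h (-0.09, interval -0.24 to 0.05) did not pass.

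Nlrp3, the sensor gene, was at background on every array. Its brighter probe had log2 signals of 6.59 to 6.83 and the other 6.42 to 6.88, and both were detected on 0 of 6 arrays at each time. It was not tested, and these arrays cannot show whether its transcript changed below that floor.

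Calls on the wider pathway lay in both directions, as they did over all genes. Of 24 listed genes of IL-1 and IL-18 receptor signalling, 17 were tested, and 6 were higher and 6 lower at 24 h, 8 and 4 at 48 h, and 8 and 6 at 72 h. The shares of all genes called higher and lower were 29.2% and 37.8% at 24 h, 33.1% and 39.2% at 48 h, and 34.2% and 39.4% at 72 h. The median log2 change of that list was -0.06, 0.09 and 0.11, beside -0.05, -0.03 and -0.03 over all genes. Irak2, a kinase that carries the signal from MyD88, was 1.28-fold lower at 24 h but 2.24-fold higher at 72 h (log2 change 1.16, limma adjusted p = 3.46e-21). Ikbkb, a kinase that releases NF-kB, was 1.78-fold higher at 72 h. Among the inhibitors, Tollip was 1.66-fold lower at 24 h and Sigirr 1.48-fold lower at 72 h, where 1 of 6 arrays detected it. Of 10 listed names of other IL-1 family ligands, 6 had a probe and 1, Il1f10, was tested, and it passed at no time. Il33 was detected on 1 array at 24 h and on none at the other times.

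Other inflammasome genes had more calls higher than lower from 48 h, where calls over all genes were more often lower (33.1% higher and 39.2% lower at 48 h, 34.2% and 39.4% at 72 h). Of 29 listed, 19 were tested, with 5 higher and 7 lower at 24 h, against 29.2% and 37.8% of all genes. The counts were 11 and 5 at 48 h and 11 and 6 at 72 h, and the median log2 change was -0.08, 0.20 and 0.18 at the 3 times. Gsdmd, whose protein forms the pore through which mature IL-1β leaves the cell, was 2.85-fold higher at 24 h (log2 change 1.51, limma adjusted p = 3.75e-23), and it was still 2.32-fold and 1.75-fold above 0 h at the later times. Mefv, the gene of the sensor pyrin, was detected on no array at 0 h and was at least 2.49-fold higher at 24 h. In the other direction, Serpinb1a, which encodes an inhibitor of neutrophil proteases, was at least 1.59-fold lower at 72 h, and Gsdme, another pore-forming gasdermin, was 1.87-fold lower at 48 h.

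Proteases and a carrier that process or release IL-1 apart from caspase-1 were mostly lower. Of 9 listed, 7 were tested, and 1 rose and 5 fell by 24 h, whereas at 48 h as at 72 h the counts were 0 and 6, against 37.8%, 39.2% and 39.4% of all genes called lower at the 3 times. The median log2 change of the list was -0.65, -0.44 and -0.48. Ctsg (cathepsin G) was 10.9-fold lower at 72 h and Prtn3 (proteinase 3) 9.11-fold lower, and both are also neutrophil markers, as is Elane. These genes fell together with the neutrophil markers given above, and the part of such cells in the fall was not tested. Capn2, a calpain subunit gene, was 1.68-fold higher at 24 h but 1.15-fold lower at 48 h.

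Genes that IL-1 often induces had calls in both directions, as did all genes (29.2% higher and 37.8% lower at 24 h, 33.1% and 39.2% at 48 h, 34.2% and 39.4% at 72 h). Of 18 listed, 11 were tested, with 3 higher and 6 lower at 24 h, 6 and 4 at 48 h, and 5 and 5 at 72 h, and a median log2 change of -0.13, 0.13 and 0.10. Nfkbia, an inhibitor of NF-kB, was 3.43-fold higher at 24 h and 1.32-fold at 72 h, and the adhesion gene Icam1 was 3.23-fold higher at 24 h. Ccl2, a monocyte chemokine gene, fell 1.88-fold at 24 h and 23.9-fold at 72 h (log2 change -4.58, limma adjusted p = 1.23e-35). Lcn2, which is also a neutrophil marker, was 7.36-fold lower at 72 h, and the part of such cells in this was not tested either. RANKL too induces NF-kB target genes, so this list does not single out IL-1.

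**Figure D5:**
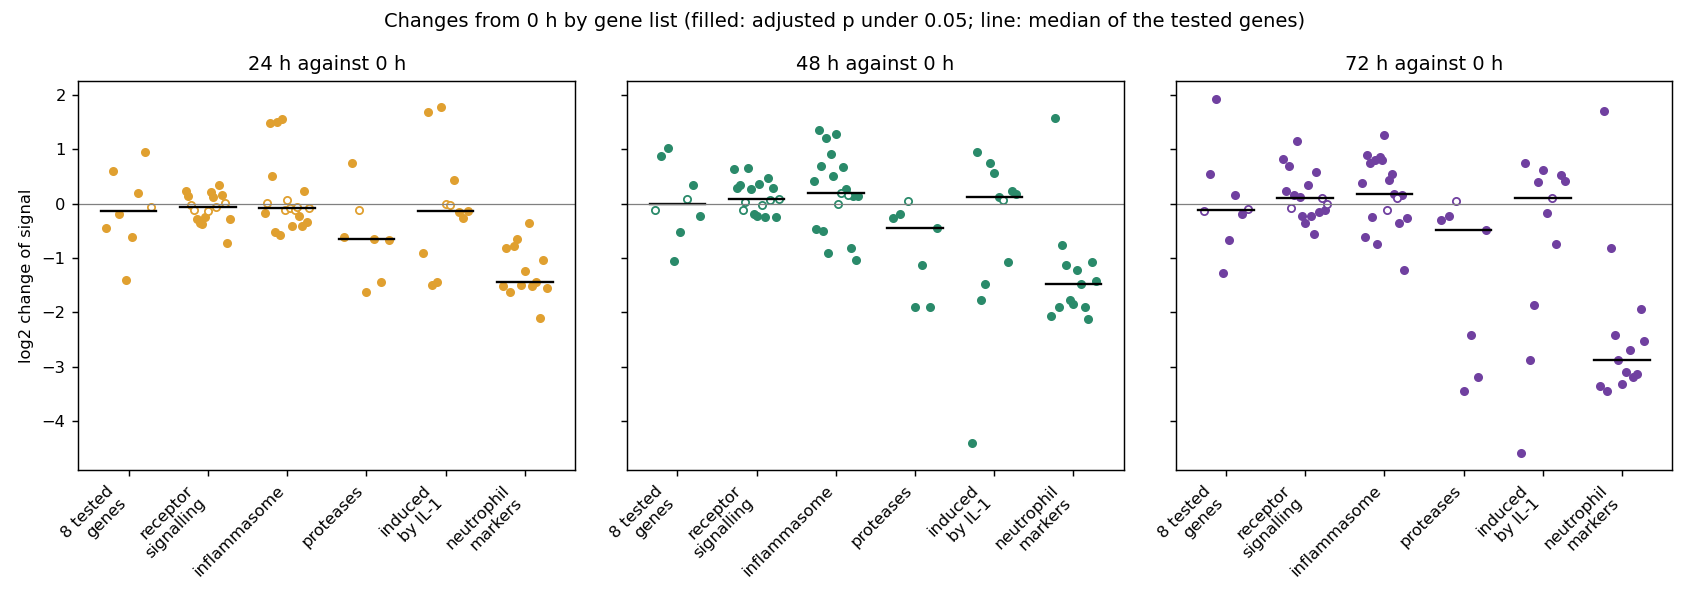
Log2 change from 0 h (vertical axis) of each tested gene, by list, at 24, 48 and 72 h; filled points passed at an adjusted p under 0.05 and lines are medians. The neutrophil markers had medians of -1.45, -1.47 and -2.88, and each of the other lists plotted had genes on both sides of 0 at 24 h.

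The genes whose log2 signal followed each tested member most closely over the 24 arrays are given as a description. Arrays of 1 time share their condition, so these values mostly compare the means of 4 times. Best1, Vsir and Gprc5b were closest to Il1a (Pearson's r 0.991, 0.990 and 0.988), and Best1 was at least 4.69-fold higher at 72 h. Def6, Fam217b and Ly6d were closest to Il1b (r 0.982, 0.982 and 0.980), and all 3 were lower at each later time. Jdp2 was closest to Il1rn (r 0.981), with a log2 change of 2.68 at 24 h, followed by Srgap3 and Ifi35. Mvd was closest to Il1r2 (r 0.949), Trim30d to Il18 (0.961) and Katna1 to Casp1 (0.934). The best matches of Il1rap (Uimc1, r 0.836) and Pycard (Slc35b4, r 0.737) were looser. Between members, r was highest for Il1b with Il1r2 (0.905), both of which fell by 24 h, and it was -0.356 for the neighbours Il1a and Il1b. Il1r2 was detected on no array after 0 h, and Il1b on 0 at 24 h and 2 at 72 h, so these values rest in part on background readings. The same holds for the matches of Il1a, Il1b, Il1r2 and Il1rap. Il1a was detected on 1 of 6 arrays at 0 h and 0 at 24 h, and Best1 on 0 at both times. Ly6d was detected on 0 arrays at 24 h and at 72 h.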

How the data were processed

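Total RNA of BMMs was amplified into biotin-labelled cRNA, which was hybridised to Illumina mouse bead arrays. The authors extracted the deposited signal intensity and detection p-value of each probe with GenomeStudio, without normalization or background subtraction. The authors' processed log2 values served as an alternative. The methods name log transformation and quantile normalization, but the medians of this table differ between arrays (1.90 to 1.99), so its scaling stays unknown. Log2 signals were quantile normalized with limma 3.58.1 in R 4.3.3. A probe was kept if 3 or more of the 6 arrays of some time had its detection p below 0.05 (18346 of 45281 probes), of which 15558 name 1 gene. The brightest kept probe, by mean signal, stands for its gene. Each of 9917 genes was fitted over the 4 times (eBayes with trend, 20 residual degrees of freedom), with Benjamini-Hochberg adjustment over all genes. A further probe was fitted among all kept probes. Where no array of a time detected a probe, "at least" sets the measured group against, on each array, the lowest signal of any detected probe or the probe's own where that was brighter. The number of arrays limits the precision. The script was tested on simulated data.

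All 10 genes are named; from each list, up to 2 rises and 2 falls with the largest change among those that passed without overlap, with values at other times added for some of them; and for each tested gene the 3 with the highest r. Ctsk, Acp5 and Mmp9 check the labels, and Csf1r, Cxcr2, Retnlg, Csf3r, Elane, Il33, Il1f10, Il18bp, Irak3, Col1a1, Dcn, Cxcl12, Col3a1, Lum and Pdgfrb were named after their values were seen. Members and lists were chosen with earlier results of these data known. Figures were drawn with matplotlib 3.10.9.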

Additional observations from a re-analysis of the deposited data

Results flagged for a closer look

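In 3 of the 64 groups of 6 arrays (16 kept probes at 4 times), 1 array stood apart from the other 5. Chance alone flags about 1 group in 20. The Il18 probe ILMN_1236517 read 8.11 on replicate 4 at 0 h, where the next array was at 7.98, and 9.13 on replicate 4 at 48 h, where the next was at 8.85. Without replicate 4 the log2 change of Il18 was 0.84 at 48 h against 0 h and -0.29 at 72 h against 48 h, and both still passed (limma adjusted p = 5.94e-16 and 5.74e-05). The Il1rap probe ILMN_2740464 read 7.02 on replicate 6 at 0 h, where the next array was at 6.86 and none was detected.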

How the results depend on the processing

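For the 40 log2 changes of the 8 tested genes, 795 alternative values were computed, beside those of the further probes. Of these, 732 kept direction and call, 18 lost the call, 32 gained it and 13 changed direction, 5 of them where the reported change had passed. The calls on Il1a, Il1b, Il1r2 and Il18 against 0 h kept their direction under every alternative run that gave a value. Those on Il1a and Il1r2 at 24 h did not pass with the methods' t-test and Bonferroni adjustment (t-test adjusted p = 0.0721 for Il1r2). What changed direction was Il1rn, Il1rap, Casp1 and Pycard, and the cause was not tested. For Il1rn at 72 h against 0 h, the mean of the kept probes gave 0.21 and the second-highest probe 0.92, against -0.19. Il1rap gave -0.15 with the strict filter (all 6 arrays of some time), -0.07 with the mean and -0.15 with the second-highest probe at 48 h, and -0.15, -0.06 and -0.15 at 72 h. Its further probes, added after the data were seen, gave -0.11 (ILMN_2740464), -0.13 (ILMN_1243228) and -0.15 (ILMN_2740465) at both times, and ILMN_1243228 gave 0 from 48 h to 72 h. Changes that had not passed also turned: Casp1 from 48 h to 72 h (0.02 without replicate 1 and 0.01 without replicate 4), Pycard at 24 h (0.03 with the authors' processed values, 0.02 with median scaling) and Pycard from 24 h to 48 h (0.02 with its second probe).

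Requiring at least 1.5-fold as well left 1 gene higher and 0 lower from 48 h to 72 h, 2 lower at 24 h, 1 lower at 48 h, 1 higher at 72 h and 1 higher from 24 h to 48 h. The methods' t-test with Bonferroni adjustment called 1 lower at 24 h, 1 higher from 24 h to 48 h and 1 lower from 48 h to 72 h. The count lower from 24 h to 48 h, 1 as reported, was 2 with the authors' processed values, 75th percentile scaling, the strict filter, the mean, the second-highest probe or only the 12 arrays compared, and 3 with median scaling or array weights. Leaving out each replicate number in turn gave 1 to 3 there, and against 0 h it gave 2 to 4 lower at 48 h and 3 to 4 lower at 72 h. It gave 4 to 5 higher from 24 h to 48 h and 3 to 4 lower from 48 h to 72 h, with no change in the other counts. From 24 h to 48 h, Pycard passed without replicate 3 (-0.21) or 6 (-0.18), Il1rap without replicate 4 (-0.14) or 6 (-0.14), and Il1r2 without replicate 3 (0.15); Il1r2 also passed from 48 h to 72 h without replicate 3 (-0.17). Il1r2 has no value under the strict filter.

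With the replicate number as a block, 2 genes were lower from 24 h to 48 h, Pycard having passed, and Casp1 was lower at 72 h; no other count of the 8 genes moved by over 1.5 times. Deviations of same-numbered arrays correlated by -0.207 to 0.494 (median 0.137, 36 pairs, against -0.0137 for other numbers), and an array's best match had its own number in 34 of 72 cases. Same-numbered arrays thus deviated together in part but not in every pair, no label says what a number stands for, and the numbers were not taken as pairing.

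Over all genes, Bonferroni adjustment called 1047 higher and 1240 lower at 24 h against 2898 and 3749, 1317 and 1550 against 3285 and 3890 at 48 h, 1381 and 1651 against 3387 and 3904 at 72 h, 1763 and 1687 against 3883 and 3434 from 24 h to 48 h, and 219 and 413 against 1730 and 1921 from 48 h to 72 h. From 48 h to 72 h, 985 genes were higher with the authors' processed values and 802 with median scaling. Signals near background limit Il1a before 48 h, Il1b from 24 h, Il1r1, Il1r2, Il1rap and Nlrp3, where a change could be larger than measured.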
